A study of Mus musculus with 16 samples.

Results

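C1qtnf3 encodes CTRP3, a secreted protein of the C1q/TNF family, and is 1 of the 31053 genes counted in single cells of glomerulus-enriched kidney from diabetic nephropathy (DN) and control mice. It was chosen by its own measured values in these cells, namely its higher level in DN than in control mesangial cells and its pattern over cell types, so both of those are given as descriptions without a test. It was followed in 4061 mesangial-like cells, 1791 smooth muscle and renin-like cells and 17082 proximal tubule (PT)-like cells, and in every other class among 83824 kept cells of 116439 barcodes.

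The study asked which cells of the kidney change at the onset of DN. DN mice were BTBR ob/ob, which lack functional leptin in every tissue and become obese and diabetic, and control mice were BTBR +/+. Both genotypes carried a podocyte reporter, a Cre transgene under a podocyte promoter with a 2-color fluorescent allele. Females and males of 6 and 12 weeks gave 8 groups of 2 mice, with 1 library per mouse and 8 libraries per genotype.

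C1q/TNF proteins share a globular C1q domain, joined to a collagen-like stalk in many members, and assemble into trimers. Adiponectin, the best known of them, is a hormone of fat cells, and CTRP3 is named as an adipokine for its relation to adiponectin. CTRP3 was also described in cartilage. Mesangial cells hold the capillary loops of the glomerulus together, contract, and lay down the matrix that expands in DN, whereas PT cells reabsorb most of the filtered solutes.

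The libraries held 10510855 to 125551519 unique molecular identifiers (UMIs, each marking 1 captured RNA molecule) in 3853 to 10879 barcodes. Barcode sharing split them into 12 libraries and a smaller set of 4, here called batches, although which kit or run each set stands for is not given in the sources used here. The 4 were replicate 1 of each female group, had the fewest UMIs and held both genotypes. All male libraries were in the larger batch. PT segments had been partly removed on a density gradient before dissociation. The samples were labelled as glomeruli cells, but PT-like and other tubule cells outnumbered mesangial-like cells. Mesangial-like cells carried all 8 mesangial markers, whose summed level was 16870 to 19380 CPM (the usual CPM scaling of UMI counts, by the UMI total of the class in the library) over control libraries and 15789 to 19300 CPM over DN libraries. In PT-like cells the 8 PT markers summed to 6342 to 9188 CPM in control and 5467 to 9272 CPM in DN libraries.

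C1qtnf3 (ENSMUSG00000058914) spans chr15:10952332-10980150 on the plus strand of the mm10 genome (GENCODE annotation of GRCm38), a gene of 27819 bases. It has 2 protein-coding transcripts of 6 exons each, with 2338 and 2088 bases. Their last 400 bases, where 3 prime libraries count, had no match of at least 60 bases at 95% identity among 141765 transcripts of other genes. The next gene, Amacr (ENSMUSG00000022244), begins 1606 bases downstream on the same strand, at chr15:10981756-10996626. It encodes a racemase of branched-chain fatty acid oxidation. The processed pseudogene Gm49068 lies 13788 bases upstream.

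C1qtnf3 was a low-abundance transcript, most of whose UMIs lay in a few classes. The barcodes held 6942 C1qtnf3 UMIs, of which 5388 (77.6%) were in kept cells. PT-like cells held 2962 of these (55.0%), mesangial-like cells 1093 (20.3%), and smooth muscle and renin-like cells 319 (5.92%). Cells of clusters that could not be named held 805 UMIs (14.9%), of which 298 in DN and 255 in control libraries were in 1 cluster led by Slc7a12. The 2 genotypes divided their UMIs differently. In control libraries PT-like cells held 73.4% of the C1qtnf3 UMIs of kept cells and mesangial-like cells 0.927%, whereas in DN libraries the shares were 39.2% and 36.8%.

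**Figure D1:**
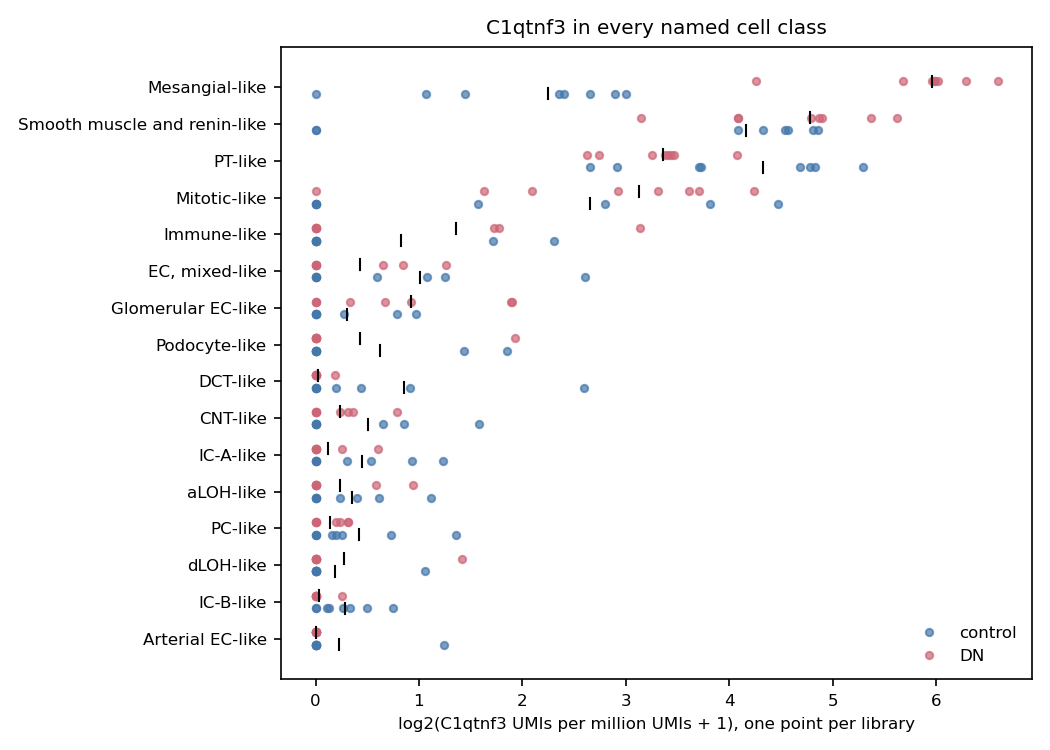
C1qtnf3 level in each cell class, as log2(CPM + 1) per library (points; control and DN in separate colors) with ticks at log2(mean CPM + 1) over the 8 libraries of a genotype. Mesangial-like, smooth muscle and renin-like, PT-like and mitotic-like cells stand above the other classes, and the genotypes separate in mesangial-like cells, with means of 3.75 CPM in control and 61.4 CPM in DN.

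In DN libraries the order of mean levels was mesangial-like (61.4 ± 22.2 CPM, SD, n = 8), smooth muscle and renin-like (26.5 ± 13.3 CPM), PT-like (9.27 ± 3.25 CPM) and mitotic-like cells (7.76 ± 5.95 CPM). Over libraries the first of these ran from 18.1 to 95.9 CPM and the second from 7.85 to 48.2 CPM, so these neighbors overlapped, as did PT-like and mitotic-like cells. The mitotic-like class joined clusters of unlike level. In DN a cluster of 58 cells held 19 UMIs (24.0 CPM over its pooled cells), and one of 312 cells held 28 UMIs (5.66 CPM). In control libraries the order was PT-like (19.1 ± 11.7 CPM), smooth muscle and renin-like (16.9 ± 11.1 CPM), mitotic-like (5.28 ± 7.90 CPM) and mesangial-like cells (3.75 ± 2.57 CPM), with overlapping ranges between neighbors. The highest mean of any other named class was 1.57 CPM, in DN immune-like cells, from 6 UMIs. Podocyte-like cells, the other supporting cells of the glomerulus, held 5 UMIs in 903 control cells and 1 UMI in 260 DN cells. Glomerular endothelial-like cells held 4 UMIs in 3036 control cells and 7 UMIs in 3094 DN cells. These classes were near 0 in both genotypes. CPM here are UMI counts at transcript ends and are not scaled by transcript length.

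Mesangial-like cells carried little C1qtnf3 in control mice and more in DN mice, although the lowest DN library rested on 6 UMIs. Control libraries lay between 0 and 7.03 CPM, with a median of 4.19 CPM and 23 UMIs in all. DN libraries lay between 18.1 and 95.9 CPM, with a median of 62.3 CPM and 1070 UMIs in all. The 2 genotypes did not overlap, and the DN mean was 16.4 times the control mean.

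By group, the control females had 6.45 and 5.30 CPM at 6 weeks and 7.03 and 4.10 CPM at 12 weeks. The control males had 4.28 and 0 CPM at 6 weeks and 1.10 and 1.72 CPM at 12 weeks. No control library had over 6 C1qtnf3 UMIs in these cells, so the differences among them rest on single molecules. The DN females had 18.1 and 61.5 CPM at 6 weeks and 50.4 and 95.9 CPM at 12 weeks. The DN males had 62.4 and 77.3 CPM at 6 weeks and 63.7 and 62.2 CPM at 12 weeks. The lowest DN value was from DN female 6 weeks replicate 1, a library of the smaller batch with 6 C1qtnf3 UMIs in 157 cells, for which the exact 95% Poisson interval was 6.66 to 39.5 CPM. Such intervals cover counting error only. Within the larger batch the levels were 2.75 ± 2.10 CPM in control and 70.5 ± 13.8 CPM in DN (n = 6 each), and within the smaller batch the means were 6.74 and 34.2 CPM (n = 2 each).

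**Figure D2:**
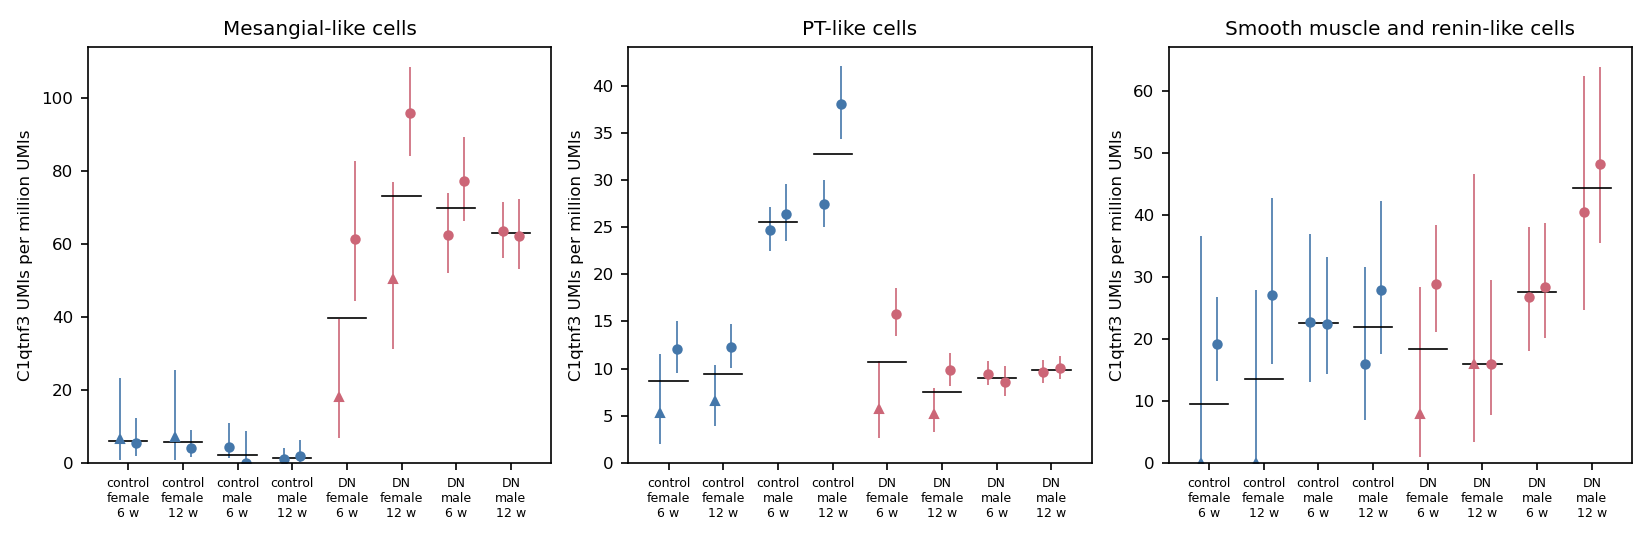
C1qtnf3 level (CPM) in mesangial-like cells, PT-like cells, and smooth muscle and renin-like cells of each library, by genotype, sex and age. Points are libraries (circles, the larger batch by shared barcodes; triangles, the smaller one) with exact 95% Poisson intervals, and black lines are group means; all 8 DN libraries lie above all 8 controls in mesangial-like cells, and the 4 control males lie above the other libraries in PT-like cells.

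In the edgeR fit over all genes the DN minus control difference was 3.76 on the log2 scale (SE 0.46, 13.6-fold) at 6 weeks and 4.77 (SE 0.42, 27.4-fold) at 12 weeks. Only 5 of 10090 genes had a larger positive change at 6 weeks and 7 at 12 weeks. These values come from the contrast that chose the gene. As background, edgeR called 0.0595% of genes higher and 0.0198% lower in DN at 6 weeks, and 1.36% higher and 0.605% lower at 12 weeks, at an adjusted p of 0.05. With control and DN mice of the same replicate number paired, it called 2.31% higher and 0.951% lower at 6 weeks, and 6.89% higher and 4.31% lower at 12 weeks. The mesangial-like cells formed a deeper cluster of 3807 cells and a shallow one of 1166 cells before the last filters. In the deeper cluster the means were 59.1 CPM in DN females, 67.4 CPM in DN males, 5.75 CPM in control females and 1.61 CPM in control males. In the shallow cluster they were 12.5, 34.4, 8.55 and 3.54 CPM in the same order, from 5, 23, 1 and 1 UMIs. There the ranges of the genotypes overlapped in each sex.

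Markers of the other cells were read in the same mesangial-like sums. The 8 PT markers summed to 25.8 to 297 CPM in control and 45.3 to 155 CPM in DN libraries, 0 of 8 were higher in the DN mean, and Cubn, one of the markers by which cells of mixed lineage had been removed, was at 0. Slc34a1, the phosphate carrier of PT cells, stood at 2.03% of its PT-like level in control and 1.30% in DN mesangial-like cells. The same percentages of the PT-like C1qtnf3 level come to 0.388 and 0.121 CPM, a scaling by 1 gene. The 8 smooth muscle and renin markers summed to 98.4 to 548 CPM in control and 319 to 5226 CPM in DN mesangial-like cells, with 7 of 8 higher in the DN mean. Their summed level in smooth muscle and renin-like cells themselves was 27496 to 74968 CPM over the 16 libraries, and C1qtnf3 was lower in those cells than in mesangial-like cells in the DN mean. The 6 fibroblast markers summed to 112 to 582 CPM in control and 201 to 767 CPM in DN mesangial-like cells, with 5 of 6 higher in the DN mean. The part of PT, smooth muscle and fibroblast RNA in the C1qtnf3 level was not tested.

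C1qtnf3-positive cells, those with at least 1 UMI, made up 19.1% ± 8.48 of mesangial-like cells in DN libraries (range 3.82% to 28.8%) and 1.51% ± 1.12 in control libraries (n = 8 each). DN cells were deeper, with a median over libraries of 5284 UMIs per cell against 4088, so each cell was also thinned to 1000 UMIs. The share was then 4.69% ± 2.09 in DN (2199 cells, 283 shallower cells left out) and 0.493% ± 0.504 in control (1420 cells, 159 left out). At 1000 UMIs the shares overlapped, from 0.735% to 7.05% in DN and from 0% to 1.32% in control, with DN female 6 weeks replicate 1 the lowest of the DN libraries. Its value came from 1 cell. In classes that served as a background for free RNA, the thinned share was 0.0969% in control and 0% in DN aLOH-like cells (median 9866 and 9972 UMIs), and 0% in both genotypes of DCT-like cells (median 10920 and 15305 UMIs). In glomerular endothelial-like cells, of nearly the same depth as mesangial-like cells (median 4140 and 5435 UMIs), it was 0% in control and 0.255% in DN. These classes were taken up after PT-like cells, the planned background, proved to carry C1qtnf3, and the DN mesangial-like level had chosen the gene. That the mean DN mesangial-like share lay above each of these is therefore a description. The part of free RNA in it was not tested. PT-like cells were not a background, since their thinned share was 1.57% in control and 0.835% in DN. At 500 UMIs mesangial-like shares ran from 0.637% to 4.63% in DN and from 0% to 0.578% in control. At 2000 UMIs they ran from 5.33% to 12.2% and from 0% to 1.49%. The genotypes did not overlap at these depths, and the lowest DN value at 500 UMIs came from 1 cell.

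C1qtnf3 was spread unevenly over DN mesangial-like cells. Of 2482 cells, 522 (21.0%) had a UMI. Among these, 291 (55.7%) had 1 UMI, 109 (20.9%) had 2 and 122 (23.4%) had 3 or more, with 31 UMIs in the highest cell. Those 122 cells held 561 of the 1070 UMIs (52.4%). Had each UMI fallen on cells in proportion to their depth, more cells would have had one in 7 of 8 DN libraries. The observed share lay under that Poisson share by up to 16.4 percentage points, in DN female 12 weeks replicate 2 (21.9% against 38.3%). The exception was DN female 6 weeks replicate 1, with 3.82% against 3.73%. In control libraries the highest cell had 2 UMIs. PT-like cells also lay under their Poisson share, for example 23.8% against 32.9% in control male 12 weeks replicate 2. The exception there was control female 6 weeks replicate 1 (1.44% against 1.42%).

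**Figure D3:**
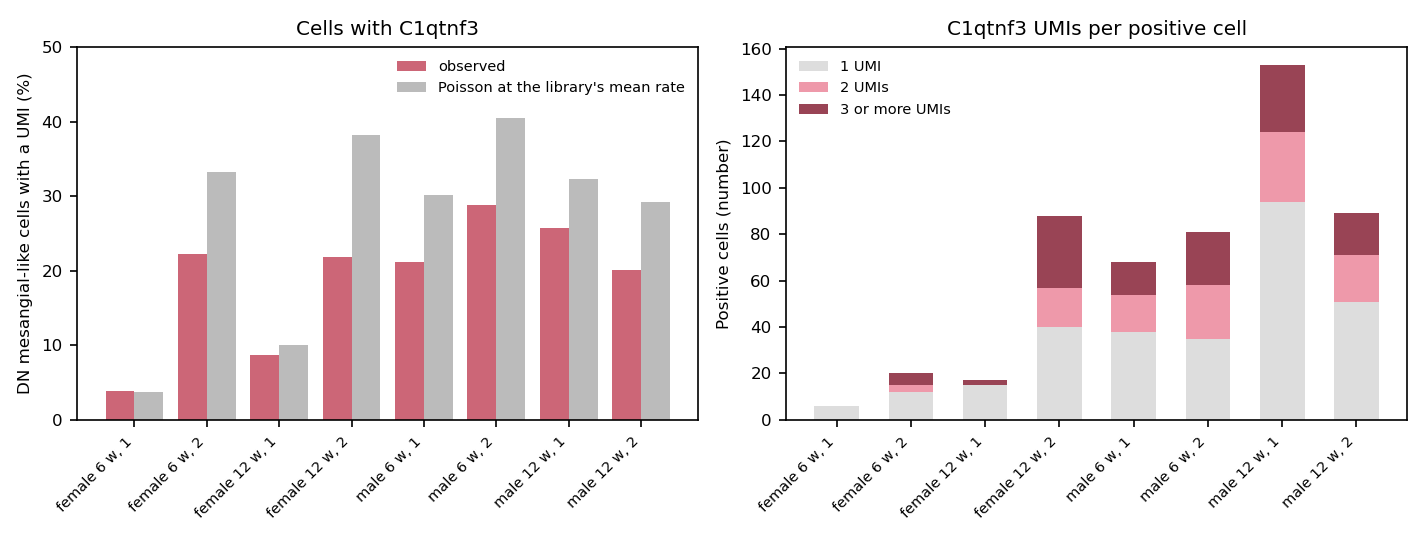
Left, percent of DN mesangial-like cells with a C1qtnf3 UMI in each of 8 DN libraries (red) beside the percent that a Poisson draw by cell depth gives (grey). Right, positive cells of each library by number of UMIs (1, 2, or 3 and more); in 7 of 8 libraries the observed bar is the shorter one, and 122 of 522 positive cells had 3 or more UMIs.

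Age and sex were not what chose the gene, and neither gave a difference past the threshold in DN mesangial-like cells. The 12 minus 6 weeks difference was 0.30 on the log2 scale (SE 0.28, ±2 SE interval -0.26 to 0.87, adjusted p = 1.00, edgeR quasi-likelihood test with Benjamini-Hochberg adjustment). In that contrast edgeR called 0 of 10090 genes (0%), DESeq2 called 0, and 213 had an unadjusted edgeR p under 0.05. The male minus female difference was 0.20 (SE 0.28, ±2 SE interval -0.36 to 0.77, adjusted p = 1.00), in a contrast with 6 genes called (0.0595%). It was -0.17 in the larger batch and -0.08 with the batch as a term, so its direction depended on the batch, which held replicate 1 of the females only.

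The DN effect itself did not differ past the threshold between ages or sexes. At 12 against 6 weeks it differed by 1.01 on the log2 scale (SE 0.75, unadjusted p = 0.199, adjusted p = 1.00, edgeR), with 0 genes called (0%) by edgeR, 0 by DESeq2 and 139 at an unadjusted p under 0.05. Without control male 6 weeks replicate 1 the value was -1.54, since the other control male library of that age had no C1qtnf3 UMI. In males against females the effect differed by 1.55 (SE 0.73, unadjusted p = 0.0524, adjusted p = 1.00, edgeR), with 0 genes called (0%) by edgeR, 0 by DESeq2 and 169 at an unadjusted p under 0.05. The control side of it was 8 UMIs in males and 15 UMIs in females, and the value was 4.11 without control male 6 weeks replicate 1.

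In PT-like cells the pattern was one of sex and genotype together. Control males had about 3 times the level of the other groups, and DN males lay at the level of females. The control males had 24.7 and 26.4 CPM at 6 weeks and 27.4 and 38.1 CPM at 12 weeks (29.2 ± 6.06, SD, n = 4). The control females had 5.29 and 12.1 CPM at 6 weeks and 6.55 and 12.2 CPM at 12 weeks (9.03 ± 3.63). The 2 sexes of the control mice did not overlap. The DN males had 9.42 and 8.56 CPM at 6 weeks and 9.63 and 10.0 CPM at 12 weeks (9.41 ± 0.626). The DN females had 5.67 and 15.8 CPM at 6 weeks and 5.19 and 9.82 CPM at 12 weeks (9.12 ± 4.92). Each male library of the DN mice lay under each male control. The lower of the 2 female values at each age was the library of the smaller batch. The unnamed cluster led by Slc7a12 was not part of these PT-like cells. Its means were 116 CPM in control males, 11.1 CPM in control females, 51.1 CPM in DN males and 12.2 CPM in DN females.

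The PT-like comparisons were added after these levels were seen. In control mice C1qtnf3 was higher in males than in females by 1.69 on the log2 scale (SE 0.26, 3.23-fold, adjusted p = 0.00137, edgeR quasi-likelihood test with Benjamini-Hochberg adjustment), in a contrast where 3.14% of 12641 genes were called higher. The difference was 1.497 (adjusted p = 0.00395) within the larger batch, which holds 2 of the 4 control females. In males C1qtnf3 was lower in DN than in control mice by a log2 difference of -1.68 (SE 0.24, 3.20-fold, adjusted p = 0.00289, edgeR), where 0.878% of genes were called lower. All male libraries were of 1 batch. In females the same difference was -0.02 (SE 0.27, ±2 SE interval -0.56 to 0.51, adjusted p = 1.00, edgeR), with 0 genes called (0%) by edgeR, 71 by DESeq2 and 563 at an unadjusted p under 0.05. Between DN males and DN females the difference was 0.04 (SE 0.25, ±2 SE interval -0.46 to 0.54, adjusted p = 1.00, edgeR), with 0.831% of genes called.

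The difference of the DN effect between the sexes was -1.65 on the log2 scale (SE 0.36, unadjusted p = 0.000499), which did not pass the threshold over all genes (adjusted p = 0.175, edgeR, 0.111% of genes called). With mice of the same number paired it was -1.66 (SE 0.22, adjusted p = 0.00121, edgeR, 1.83% of genes called). Without pairing it also passed with DESeq2 (adjusted p = 0.00957) and, in edgeR, without the count filter (0.00374). It passed too with batch (0.00599) or replicate number (0.0453) as a term in edgeR. In all the rest of the 11 other settings it missed the threshold. Among those were the larger batch (0.12) and the finer clustering (-1.20, adjusted p = 0.895).

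Within PT-like clusters the male difference of the control mice was not even. In the cluster led by Cyp4a14, a fatty acid hydroxylase, and Slc5a8 control males had a mean of 33.5 CPM against 7.14 CPM in control females, 8.78 CPM in DN males and 5.75 CPM in DN females. In the cluster led by Bhmt, an enzyme of methionine metabolism, the means were 22.6, 4.40, 4.54 and 5.23 CPM in the same order. In the cluster led by Slc5a12 and Slc5a2, the lactate and glucose carriers of the early PT, they were 21.8, 15.6, 13.6 and 15.6 CPM. In a shallow cluster led by Cox6a2 and Gatm (2743 control and 2160 DN cells) they were 15.6, 6.36, 9.96 and 11.8 CPM, and the ranges of control and DN males overlapped. A further PT-like cluster came to 97.3% from control male 6 weeks replicate 2 and held 249 C1qtnf3 UMIs. The log2 difference between DN and control males lay between -1.80 and -1.57 when each library was left out in turn.

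Amacr, the downstream neighbor, had its own sex pattern in PT-like cells. Control males had 202 to 231 CPM of Amacr, control females 68.9 to 129 CPM, DN males 75.3 to 147 CPM and DN females 57.4 to 126 CPM. The male minus female difference in control mice was 1.15 on the log2 scale (SE 0.31, adjusted p = 0.0511, edgeR), and 1.60 (adjusted p = 0.00444) within the larger batch. The DN minus control difference in males was -0.91 (SE 0.31, adjusted p = 0.27, edgeR), and the paired fit called it (adjusted p = 0.000255). For every 100 Amacr UMIs, PT-like cells held 4.11 to 27.5 C1qtnf3 UMIs over the 16 libraries. Mesangial-like cells held 0 to 55.6 in control and 300.0 to 750.0 in DN libraries, with Amacr itself at 14.8 ± 4.34 CPM in control and 12.1 ± 3.87 CPM in DN (n = 8 each). The Amacr ranges of control and DN males did not overlap in PT-like cells, and those of the genotypes overlapped in mesangial-like cells. The difference between the classes was not tested. The part of Amacr in the PT-like result was not tested.

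**Figure D4:**
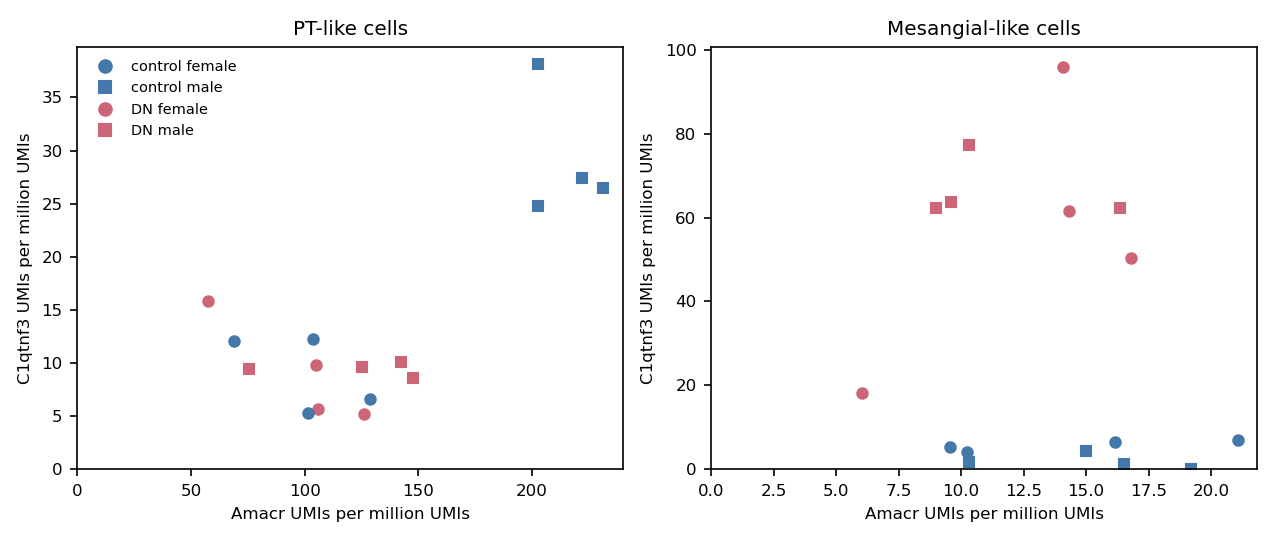
C1qtnf3 level against the level of its downstream neighbor Amacr (both CPM) in PT-like and mesangial-like cells, 1 point per library, by genotype and sex. In PT-like cells the 4 control males lie at the highest level of both genes, and in mesangial-like cells the 8 DN libraries lie high on C1qtnf3 at Amacr levels of 6.05 to 16.8 CPM, within or under the control range of 9.55 to 21.1 CPM.

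Smooth muscle and renin-like cells carried C1qtnf3 in both genotypes. Control libraries lay between 0 and 27.9 CPM (median 20.7) and DN libraries between 7.85 and 48.2 CPM (median 27.5), so the genotypes overlapped. The 2 controls at 0 were the libraries of the smaller batch, with 44 and 49 cells. Within the larger batch the levels were 22.5 ± 4.56 CPM in control and 31.4 ± 11.3 CPM in DN (n = 6 each). The DN minus control difference was 0.40 on the log2 scale (SE 0.28, adjusted p = 0.924, edgeR, 0.247% of 8908 genes called), and it was 2.15 without control female 12 weeks replicate 2 and 2.04 without control female 6 weeks replicate 2, not past the threshold in either. DN males had 35.9 ± 10.2 CPM, DN females 17.2 ± 8.66 CPM, control males 22.3 ± 4.88 CPM and control females 11.5 ± 13.7 CPM.

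The C1q/TNF relatives and other lists were read in the same DN against control contrasts of mesangial-like cells. Of 29 other C1q/TNF members, 8 were tested, and edgeR called 0 at 6 weeks (0.0595% of all genes higher) and 2 higher at 12 weeks (1.36% of all genes higher). Their median log2 difference was 0.31 at 6 weeks and 0.48 at 12 weeks, beside -0.01 over all genes at both ages. C1qtnf7, another secreted CTRP, rose by 2.02 at 12 weeks (SE 0.36, adjusted p = 0.00852). Col8a1, which encodes a short-chain collagen with a C1q domain, rose by 1.24 (SE 0.29, adjusted p = 0.0407). Over all libraries Col8a1 stood at 63.3 ± 20.5 CPM in control and 123 ± 43.9 CPM in DN, and C1qtnf7 at 10.3 ± 6.17 and 27.2 ± 12.1 CPM. Both genes overlapped between the genotypes. C1qtnf7 was higher in podocyte-like cells (257 CPM in control and 226 CPM in DN) and in smooth muscle and renin-like cells (50.2 and 37.3 CPM). The part of RNA of those cells in its mesangial-like rise was not tested.

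Other members of high mesangial-like level did not pass the unpaired edgeR test at either age. Emilin1, a protein of elastic fibers, had 172 ± 13.6 CPM in control and 218 ± 24.5 CPM in DN. C1qtnf1 had 63.3 ± 23.6 and 71.0 ± 15.8 CPM, and C1qtnf6 had 52.2 ± 26.0 and 72.3 ± 12.0 CPM. C1qtnf6 missed the threshold at 12 weeks in that fit (adjusted p = 0.0573, edgeR) and was called by DESeq2 and with batch as a term. C1qtnf2 had 47.2 ± 15.1 and 57.9 ± 31.1 CPM in mesangial-like cells, and 53.0 and 31.7 CPM in smooth muscle and renin-like cells. C1qtnf1 was highest in podocyte-like cells (334 CPM in control and 339 CPM in DN), where C1qtnf3 was near 0.

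Of the 22 adipokines 6 were tested and 0 were called at either age by unpaired edgeR, with median log2 differences of -0.02 and 0.47. DESeq2 also called 0 of them, and the paired fit called 2 at 12 weeks, where it called 6.89% of all genes higher and 4.31% lower. Adipoq, the adiponectin gene, and Lep, the leptin gene, had no UMI in mesangial-like or PT-like cells, nor in smooth muscle and renin-like cells. Of 3 adiponectin receptor genes 2 were tested and 0 were called by unpaired edgeR or DESeq2 (1 in the paired fit at 12 weeks), with medians of -0.00 and 0.16. Of 24 cartilage and tendon matrix genes 6 were tested, with medians of 0.70 and 1.21 (-0.17 and 1.22 in the paired fit). Ogn, the small leucine-rich proteoglycan osteoglycin, was the 1 called, and rose by 3.23 at 6 weeks (SE 0.54, adjusted p = 0.0367) and 3.34 at 12 weeks (SE 0.53, adjusted p = 0.00567). Its mesangial-like libraries lay between 4.10 and 24.1 CPM in control and between 43.2 and 173 CPM in DN, without overlap. In smooth muscle and renin-like cells its mean was 202 CPM in control and 82.6 CPM in DN. That difference in the other direction was not tested.

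Of 10 smooth muscle contractile genes 7 were tested, with medians of 0.42 and 0.67. Unpaired edgeR called 1 higher at 6 weeks (0.0595% of all genes higher) and 3 at 12 weeks (1.36%). Differences were positive in 6 of 7 at 6 weeks and in 5 of 7 at 12 weeks. At 12 weeks Des had -0.48 and Smtn -0.40, and Myl9 and Tpm2 had 0.59 and 0.67, none of them called by unpaired edgeR. The paired fit called Des lower at 12 weeks. Acta2, the smooth muscle actin, rose by 3.12 at 6 weeks (SE 0.51, adjusted p = 0.0331) and 2.11 at 12 weeks (SE 0.46, adjusted p = 0.0289). Tagln and Lmod1, an actin-binding protein and an actin nucleator, rose at 12 weeks by 1.98 (SE 0.48, adjusted p = 0.046) and 2.37 (SE 0.54, adjusted p = 0.0342). At 6 weeks their differences were 2.77 and 3.41 (adjusted p = 0.0626 for both, unpaired edgeR), and both were called by the paired fit, by DESeq2 and with batch as a term. The smooth muscle and renin markers of the same mesangial-like sums had means of 246 CPM in control and 1477 CPM in DN. Their medians were 218 and 907 CPM, and the highest DN library had 5226 CPM. The part of these markers in the rises was not tested. The 10 fibroblast genes were all tested, 0 were called at either age by unpaired edgeR (DESeq2 called Dcn at 12 weeks, and the paired fit 4 of 10), and their medians were 0.55 and 1.02 (0.12 and 1.05 in the paired fit). Pdgfra had 122 ± 57.3 CPM in control and 111 ± 24.0 CPM in DN.

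These list counts were sensitive to single libraries and to pairing. At 6 weeks edgeR called 2 members over all the lists, 4 in the paired fit, 4 without DN male 6 weeks replicate 1, and 0 without any 1 of 8 libraries: both control females and both control males of 6 weeks, both control males of 12 weeks, DN female 6 weeks replicate 2 and DN male 6 weeks replicate 2. At 12 weeks it called 6, and 19 in the paired fit, where those added as higher included C1qtnf6, Emilin1, Rbp4, Adipor1, Prelp, Dcn, Lum, Col1a1, Col3a1, Myl9 and Tpm2, and Des was added as lower. Over all genes the paired fit also raised the share called, so these counts are not a result about the lists. At 6 weeks the share rose from 0.0595% to 2.31% higher and from 0.0198% to 0.951% lower. At 12 weeks it rose from 1.36% to 6.89% higher and from 0.605% to 4.31% lower. Only the unpaired edgeR fit was refitted with 1 library left out. Without 1 library it called 0 (DN female 12 weeks replicate 2), 1 (control male 12 weeks replicate 2), 2 (control female 12 weeks replicate 1 or control male 12 weeks replicate 1) or 3 (control female 12 weeks replicate 2 or either DN male of 12 weeks).

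The genes that went with C1qtnf3 within DN mesangial-like cells were sought by comparing positive with negative cells of the same library. Each cell was thinned to 2000 UMIs, which left 184 positive and 1523 negative cells in the 6 DN libraries with at least 10 of each. Negative cells can still have held the transcript below detection. edgeR called 29 of 2540 genes, 22 higher (0.866%) and 7 lower (0.276%) in positive cells, and 204 had an unadjusted p under 0.05. Of the 29 called genes, 15 were higher and 3 lower in all 6 libraries. Spp1 was called higher (log2 difference 1.11, adjusted p = 0.000771, edgeR) though it was lower in positive cells of 4 of 6 libraries. The adjusted p therefore does not measure how far the libraries agree. Positive cells had been the deeper ones before thinning in 6 of 6 libraries, for example with a median of 10978 against 6644 UMIs in DN female 12 weeks replicate 2. The part of depth in the calls was not tested.

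Of the 15 genes higher in all 6 libraries, Nbl1, Loxl2, Thbs1 and Vim had the largest differences. Nbl1, a secreted antagonist of bone morphogenetic proteins, had 146 CPM in positive against 58.4 CPM in negative cells (log2 difference 1.37, SE 0.28, adjusted p = 0.000736, edgeR). Loxl2, an enzyme that crosslinks collagen, had 177 against 85.7 CPM (1.06, SE 0.22, adjusted p = 0.000845). Thbs1, the matrix protein thrombospondin 1, had 622 against 343 CPM (0.82, SE 0.13, adjusted p = 9.84e-07). Vim, the intermediate filament vimentin, had 2034 against 1149 CPM (0.81, SE 0.08, adjusted p = 3.79e-15). All of these were higher in positive cells of 6 of 6 libraries.

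The others of the 10 with the largest rise in every library were smaller in size. They were Aldh1a2, which makes retinoic acid (0.79), Col8a1 (0.76), the basement membrane gene Nid2 (0.73), the growth factor gene Vegfd (0.62), S100a10 (0.52) and the kinase scaffold gene Akap12 (0.51). Lower in positive cells of every library were Zbtb7a, a transcriptional repressor (58.4 against 141 CPM, log2 difference -0.997), Sfrp2, a secreted modulator of Wnt signaling (942 against 1393 CPM, -0.48), and Gucy1a1, a subunit of the nitric oxide receptor (552 against 737 CPM, -0.39). With any 1 of the 6 libraries left out, Zbtb7a, Gucy1a1 and Nid2 were no longer called (0 of 6 refits), whereas Nbl1, Loxl2, Thbs1, Vim and Sfrp2 were called in 6 of 6. Of the others Aldh1a2 and S100a10 were called in 5 refits, Col8a1 and Vegfd in 3 and Akap12 in 2. Col8a1 was the 1 C1q/TNF member called here of 2 tested, the other being Emilin1. Of 6 contractile genes tested Acta2 was called (0.67, SE 0.16, adjusted p = 0.00807), but it was higher in positive cells of 3 of 6 libraries. None of the tested adipokines (2), adiponectin receptors (1), cartilage and tendon genes (1) or fibroblast genes (3) was called by edgeR.

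**Figure D5:**
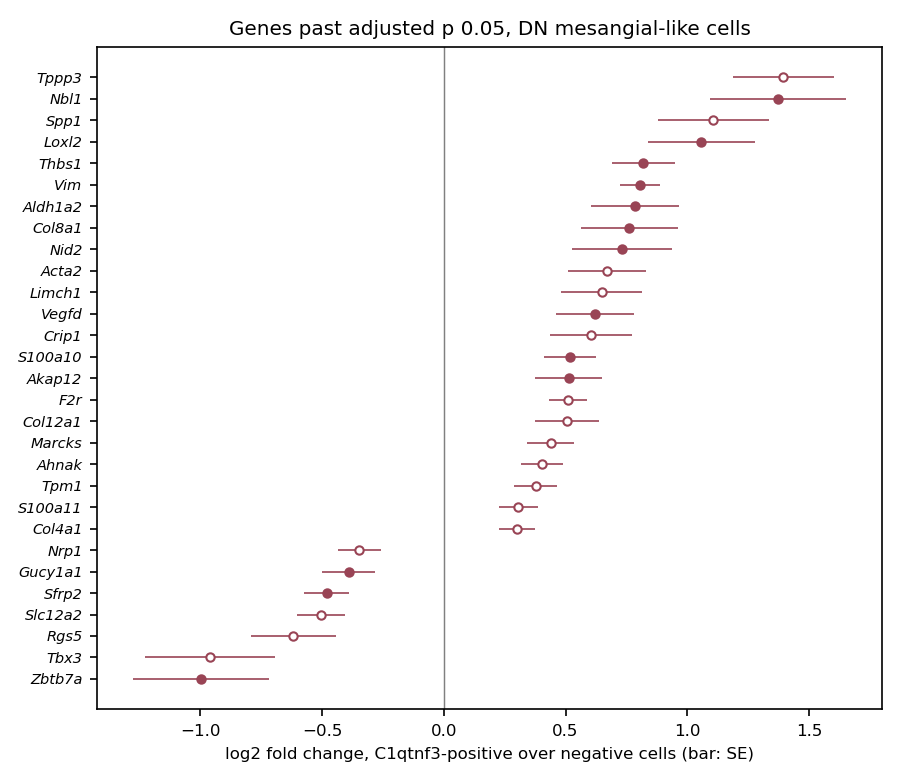
log2 difference between C1qtnf3-positive and C1qtnf3-negative DN mesangial-like cells, with SE bars, for the 29 genes called by edgeR (22 higher, 7 lower). Filled points are the genes named by the rule, which had the same sign in all 6 libraries; Nbl1 at 1.37 is the highest of these and Zbtb7a at -0.997 the lowest.

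The count of such genes changed with the thinning, the tool and the libraries used. With cells thinned to 1000 UMIs 1 gene was called, DESeq2 called 11 (10 higher, 1 lower), and without thinning 258 were called (144 higher, 114 lower). Without DN female 12 weeks replicate 2, which had the cell of 31 UMIs, 12 genes were called, and without DN male 6 weeks replicate 2, 17.

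Over cell classes, the genes of most similar level were found by Pearson correlation of log2(CPM + 1) with C1qtnf3 over 16 class means of the DN libraries. The points share their libraries and differ in depth, and the values are descriptions among 12735 genes. The DN mesangial-like level, which chose the gene, is 1 of the points. Agtr1a, the angiotensin II receptor and a mesangial marker used to name the class, was the closest (r = 0.966), followed by Susd2 (0.962), Ccdc158 (0.932), the cation channel gene Trpc1 (0.927) and the pericyte proteoglycan gene Cspg4 (0.923). Next were Gucy1a1 (0.922), Abcc9 (0.911), Gucy1b1 (0.905), Col6a3 (0.903) and Dzip1 (0.900). Like C1qtnf3 in DN libraries, these genes had their highest DN levels in mesangial-like or in smooth muscle and renin-like cells. In control libraries C1qtnf3 had 3.75 CPM in mesangial-like and 19.1 CPM in PT-like cells. Agtr1a had 752 and 21.1 CPM there, so the likeness to this marker holds for the DN means only. In DN libraries Susd2 had 85.9 CPM in mesangial-like and 42.0 CPM in PT-like cells, and Trpc1 had 213 and 74.3 CPM.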

How the data were processed

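Per the labels and the study's methods, the authors prepared 10x 3 prime libraries with kits of versions 2 and 3 and counted UMIs per gene and barcode against mm10 with Cell Ranger 3.0.2. The deposited values were raw counts, without normalization. Whether counting used strand, and which library had which kit, is not given in the sources used here. Batches were therefore read from barcodes shared between libraries (at least 0.08%).

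C1qtnf3, the gene lists and the comparisons were chosen with earlier results of these data known, and the comparisons in PT-like cells and in smooth muscle and renin-like cells were added after their levels were seen. Barcodes with 200 to 7000 genes and at most 50% mitochondrial UMIs were kept (94436). Cells with markers of several lineages (9.89%) and non-tubular cells above 20% mitochondrial UMIs (1.34%) were removed. Cells were clustered with scanpy 1.11.5 and leidenalg 0.10.2 on batch-corrected components, and clusters were named from marker lists. The naming score (1.2) and the batch limit were set after clusters and shared barcodes were seen, and 15 of 49 clusters stayed unnamed. Scrublet marked 2039 cells (2.16%), at its own threshold in 12 libraries and at the median threshold in 4 where its own marked almost no cells, and they were removed only in an alternative. PT-like cells, planned as the background for shares, had a level of their own, so other classes were used.

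For each library and cell class the counts were added up and tested with edgeR 4.0.16 (quasi-likelihood, all 8 groups in 1 fit, adjusted p of 0.05 over all genes passing the count filter), tested on simulated data first. Positive and negative cells were summed per library, with library as a term. Genes were named by rule: the 10 highest and 10 lowest called genes of equal sign in every library, the 10 closest over classes, called list members, the 4 C1q/TNF members of highest level and genes within 20 kb. Alternatives were DESeq2 1.42.0, other factors and filters, thinning, Scrublet, a finer clustering, batch, pairing and leaving out each library. Deviations of DN and control mice of the same sex, age and replicate number correlated in each of 12 checks (0.282 to 0.442 in mesangial-like, 0.363 to 0.649 in PT-like and 0.242 to 0.398 in smooth muscle and renin-like cells), so the numbers were taken to pair mice. The checks read the same mice in each cell class, so they were not independent. The labels do not say what a number marks. In females it coincides with the batch, so pairing and batch cannot be told apart there. With 2 mice a group, p-values rest on a spread that edgeR takes over all groups and moderates over all genes. They do not measure the spread of 1 gene between these mice alone.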

Additional observations from a re-analysis of the deposited data

Results flagged for a closer look

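Of 36 groups of libraries examined, 3 had a library far from the others by Dixon's test, which chance gives in about 1 of 20 groups. DN male 6 weeks replicate 2 had 77.3 CPM of C1qtnf3 in mesangial-like cells, and the nearest of the other DN males had 63.7 CPM. Control male 12 weeks replicate 2 had 0.418% positive mesangial-like cells at 1000 UMIs, from 1 cell, where the other control males had 0. DN female 6 weeks replicate 2 had 15.8 CPM in PT-like cells, and the nearest of the other DN libraries had 10.0 CPM.

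In PT-like cells the DN effect differed between the sexes in the paired fit, by -1.66 on the log2 scale (adjusted p = 0.00121, edgeR), and missed the threshold in the unpaired edgeR fit (adjusted p = 0.175).

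An unnamed cluster of 446 cells before the last filters (389 kept), which held mesangial and then glomerular endothelial markers and had a median of 17652.5 UMIs over the 446 cells, entered no comparison. Its C1qtnf3 level had a mean of 22.4 CPM over 7 DN libraries, and the highest control library had 6.61 CPM (mean 1.55 CPM). The genotypes overlapped, since DN libraries ran from 0 to 33.4 CPM in females and from 0 to 68.2 CPM in males.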

How the results depend on the processing

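Apart from leaving out libraries, 133 results under other settings kept their direction and side of the threshold, 7 reversed, 15 became stronger, 3 weaker and 5 moved. The reversed ones were differences near 0: the sex difference in DN mesangial-like cells (-0.081 with batch as a term, -0.17 in the larger batch), that in DN PT-like cells (-0.024 with upper-quartile factors, -0.20 with batch as a term, -0.21 in the larger batch, -0.046 at the finer clustering) and the DN difference in female PT-like cells (0.032 in the larger batch). The difference of the PT-like DN effect between sexes passed the threshold with DESeq2 (-1.67), without a count filter (-1.65), with batch as a term (-1.67), with the replicate block (-1.65) and with the block of 8 pairs (-1.66). List members called at 6 weeks were 4 with DESeq2, 7 without a filter, 4 with batch as a term, 1 in the larger batch and 4 with either replicate block, and at 12 weeks 15 without a filter, 10 with the replicate block and 19 with the block of 8 pairs. Over all 10090 genes DESeq2 called 51 at 6 weeks where unpaired edgeR called 8, and the block of 8 pairs called more at both ages. The block changed no other call of C1qtnf3. Genes differing between positive and negative cells were 11 with DESeq2, 258 unthinned, 1 at 1000 UMIs and 351 with positives of at least 2 UMIs, unthinned. The mesangial-like level in the smaller batch was 34.2 CPM in DN and 6.74 CPM in control. The positive share was 8.33% at 2000 UMIs and 19.1% unthinned in DN, and 1.51% unthinned in control. The cause of these changes was not tested.

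With 1 library left out, 202 results kept their call, 10 reversed, 1 became stronger and 17 weaker. A group left with 1 library was assumed to vary like the others. Mesangial-like means ran from 56.5 to 67.6 CPM in DN and from 3.28 to 4.28 CPM in control, and shares from 4.36% to 5.26% and from 0.374% to 0.563%. Log2 differences ran from 0.07 to 0.95 for age in DN, -0.041 to 0.84 for sex in DN, -1.54 to 1.65 for the DN effect by age and 1.27 to 4.11 for that by sex. In PT-like cells they ran from 1.58 to 2.04 for sex in control, -0.13 to 0.49 for sex in DN, -1.80 to -1.57 for DN in males, -0.46 to 0.33 for DN in females and -2.002 to -1.21 for the difference of the last pair. In smooth muscle and renin-like cells the range was 0.01 to 2.15. List calls ran from 0 to 4 at 6 weeks and 0 to 7 at 12 weeks, and genes differing in positive cells from 12 to 30. The control mesangial-like level rests on 23 UMIs.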

Other observations

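A cluster that could not be named (912 DN and 371 control cells kept), led by Slc7a12, Serpina1f, Apoc3 and Gc, had the highest C1qtnf3 level of any cluster in control males. Its mean over libraries was 116 CPM in control males (58.5 to 178), 11.1 CPM in control females (0 to 32.8), 51.1 CPM in DN males (17.9 to 82.2) and 12.2 CPM in DN females (0 to 22.2). Slc7a12, an amino acid carrier, and the other leading genes chose no group, and these values were not tested.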
